A study of Homo sapiens with 6 samples.

Results

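The ABC (ATP-binding cassette) transporter family was examined on the arrays of a transfection experiment in cells labelled Hep3B, an established human hepatocellular carcinoma line. Members were all genes whose annotated symbol is ABC, a subfamily letter from A to G and a number. ABCA1 and ABCG1, which are counted among cholesterol efflux genes, and the pseudogene ABCC13 were left out. This gave 40 genes with 56 probes, of 19090 named genes and 28264 probes on the arrays. Of the series' 6 single-colour Cy3 arrays, 3 carry RNA of cells labelled as transfected with CCN5, a secreted matricellular protein also known as WISP2, and 3 carry RNA of cells labelled as transfected with vector, which the sample titles call GFP. All cells were grown in DMEM with fetal bovine serum. The labels name no clone, time after transfection or passage, and they do not say that replicates were separate cultures, so a p-value here reflects array-to-array scatter that may be purely technical.

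ABC proteins share a nucleotide-binding domain that hydrolyses ATP. In most members a pair of these domains drives a pair of membrane domains that move lipids, sterols, bile salts, peptides, drugs or conjugated metabolites across a membrane. In hepatocytes the apical members form the pumps of the bile canaliculus, basolateral members return conjugates to blood, and others serve mitochondria, lysosomes and peroxisomes. The E and F subfamilies have no membrane domain and act on ribosomes and translation.

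The arrays had medians of 504 to 600 and upper quartiles of 2486 to 2618 in deposited intensity. Vector replicate 1 stood apart in its low values, with 1330 probes below 0 against 0 to 12 on each other array. The CCN5 probe averaged 655 ± 30.7 in arrays labelled CCN5 and 851 ± 25.7 in arrays labelled vector (SD, n = 3 each). That difference of -0.34 on the log2 scale (limma adjusted p = 0.151, exact two-sided permutation p = 0.1, the smallest possible) goes against the label, so groups are named by their labels and each direction rests on them. Hepatocyte markers were dim. Ranked by mean signal among all probes, 16 of 17 measured were in the lower 50%, with ALB at percentile 12.2 and AFP at 26.7, while the 8 measured squamous epithelial markers had a median percentile of 96.2, with KRT14 at 95.4, KRT16 at 85.8 and KRT5 at 98.4. These signals go against the label of a hepatocellular line, so the cells too are named by their label. Their identity was not tested. Squamous markers were higher for 1 and lower for 7 of 8 genes in arrays labelled CCN5, with summed intensities of 227644 to 240341 against 228739 to 245195 in arrays labelled vector. Leukocyte markers were lower for 12 of 12, with sums of 9205 to 11977 in arrays labelled CCN5 and 13373 to 13923 in those labelled vector. Of these 12 probes 9 lay in the lower 50% of signal. Much of the sums came from CD3D (mean 3923 against 4778) and CD68 (3326 against 4437). Fibroblast markers were lower for 7 of 10 and endothelial markers for 5 of 9, with 7 and 8 of these probes in the lower 50% of signal. In a bulk sample fewer cells of a type and less RNA per cell cannot be told apart, and the part of these markers in the results that follow was not tested.

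No ABC gene passed the test over all probes. With limma on quantile-normalized log2 intensities, 0 of the 40 members were called at an adjusted p under 0.05, where 0% of the 28264 probes were. At an unadjusted p under 0.05 there were 5 members higher in arrays labelled CCN5 (12.5%, against 8.58% of all genes) and 5 lower (12.5%, against 11.2%). All 3 arrays labelled CCN5 lay above all 3 labelled vector for 7 members (17.5%, against 12.0% of all genes) and below them for 5 (12.5%, against 16.0%). These shares were near those of all genes. The median difference was -0.04 over the members and -0.01 over all genes, and the members' median turned above 0 on the deposited scale and under median centring, and without CCN5 replicate 3 (0.061), vector replicate 1 (0.03) or vector replicate 3 (0.01). It was also above 0 without the lowest 25% of probes (0.02) and without the lowest 50% (0.076), which leave 33 and 19 members. The 5 lower genes numbered 2 without vector replicate 1, 1 without vector replicate 2, 2 without vector replicate 3 and 3 without CCN5 replicate 1 or 3, and the 5 higher genes numbered 3 without CCN5 replicate 2 or vector replicate 2. In those fits the shares of all genes moved as well. Of all genes 8.30%, 6.31% and 8.03% were lower without vector replicates 1, 2 and 3, and 10.1% and 8.44% without CCN5 replicates 1 and 3, while 9.69% were higher without CCN5 replicate 2 and 4.77% without vector replicate 2.

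**Figure D1:**
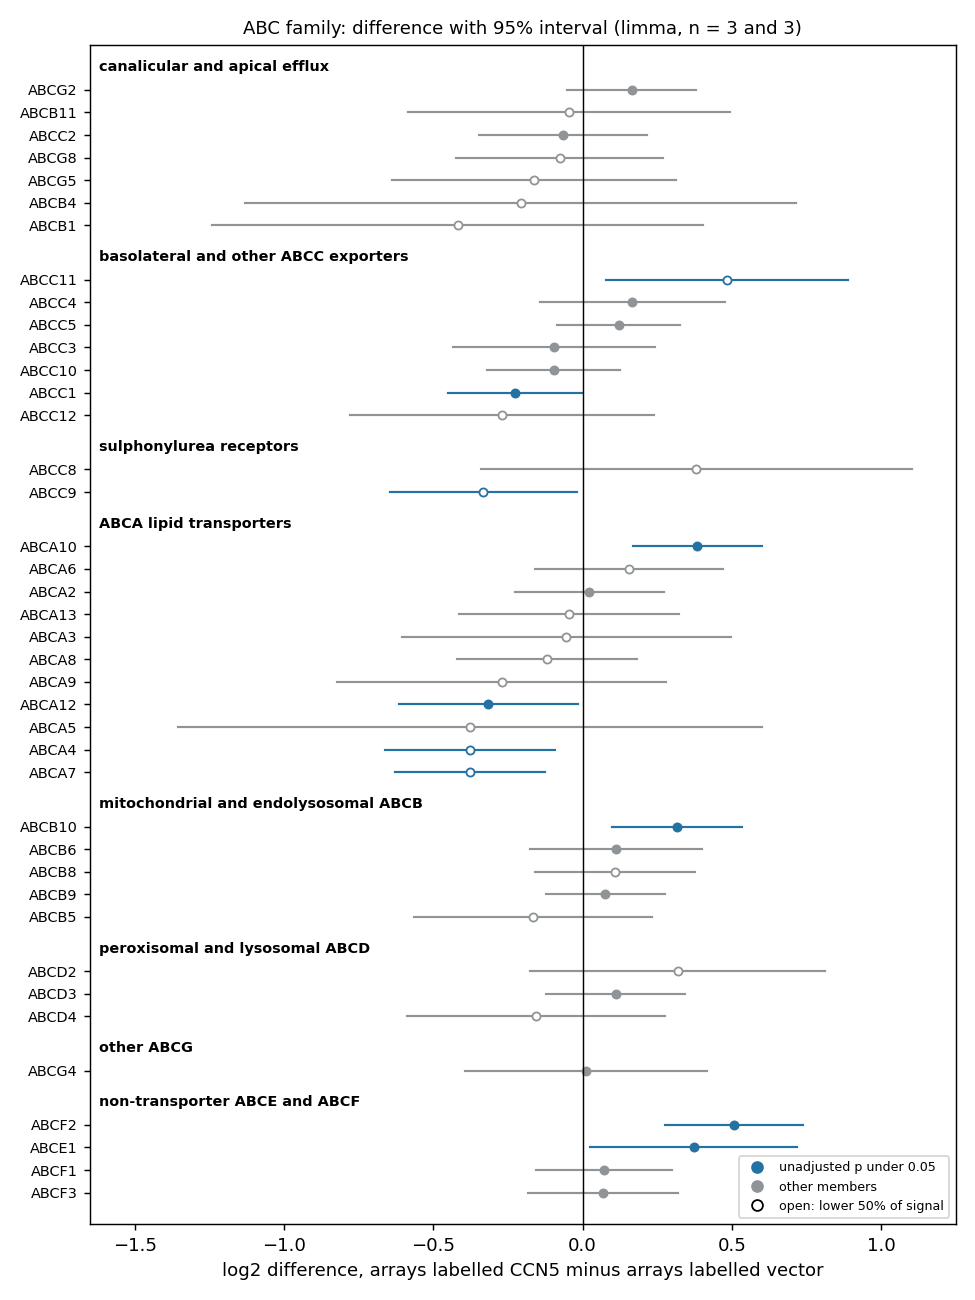
Log2 difference of each of the 40 ABC genes (brightest probe), CCN5 minus vector, with limma's 95% interval (n = 3 and 3), grouped by role. ABCB5 is drawn with the mitochondrial and endolysosomal B members, a site not claimed for it. The 10 blue genes had an unadjusted p under 0.05, open points lie in the lower 50% of signal, and ABCF2 stands farthest to the right at 0.51.

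The members without a membrane domain gave the member with the smallest p. ABCF2, a soluble ATPase whose yeast relative Arb1 takes part in ribosome biogenesis, read 5356, 6288 and 5981 in arrays labelled CCN5, against 4351, 4021 and 3966 in arrays labelled vector. Every array labelled CCN5 lay above every array labelled vector. On the normalized scale that is 0.51 log2 units (SE 0.10, 95% interval 0.28 to 0.74) or 1.42-fold (limma adjusted p = 0.108). A second ABCF2 probe, at percentile 23.1 of signal, read 105, 146 and 145 in arrays labelled CCN5 and 64.8, 112 and 93.8 in those labelled vector. These groups overlapped, and the difference was again 0.51 with a wider SE of 0.23. ABCE1, which splits ribosomes into subunits after termination, read 1190, 1432 and 1540 in arrays labelled CCN5 against 1058, 1024 and 1173 in arrays labelled vector. The groups did not overlap, CCN5 replicate 1 being close to vector replicate 3, and the difference was 0.37 (SE 0.14, limma adjusted p = 0.240). ABCF1, which promotes translation initiation, and ABCF3, a relative of yeast Gcn20, had intervals that included 0. Their differences were 0.07 (interval -0.16 to 0.30) and 0.07 (-0.18 to 0.32), the second turning below 0 without CCN5 replicate 2 (-0.01). All 4 genes of this group lay in the upper 50% of signal, and the 4 had a median difference of 0.22.

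When only the upper 50% of probes entered the fit, ABCF2 passed the threshold (limma adjusted p = 0.0231). So did ABCA10 (adjusted p = 0.0391), described with its subfamily. ABCF2 also passed with log2(value + 50) (adjusted p = 0.0496) and with a trended, robust variance (adjusted p = 0.0311), fits that called 0.314% and 0.723% of all genes higher. In the fit to bright probes they were 2 of the 19 members tested there (10.5%), against 3.00% of the 10561 genes called higher. The other ABCA10 probe in that fit stood on the other side of 0, at -0.14. No member was called lower, against 4.23% of genes, and 2 (10.5%) were lower at an unadjusted p under 0.05, against 15.9% of genes. The adjusted p of ABCF2 ranged from 0.0231 to 0.419 over the alternatives and that of ABCA10 from 0.0391 to 0.449.

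The genes that work beside ABCE1 and the F subfamily were mostly above 0 as well. Of 12 ribosome recycling and termination partners 10 were measured, 8 higher and 2 lower, with a median of 0.13. At an unadjusted p under 0.05, 3 of the 10 were higher and 0 lower, against 8.58% and 11.2% of all genes. The list was chosen with earlier results of these data known and was not tested as a set. The termination factor ETF1 stood at 0.25 (SE 0.09), the initiation factor subunit EIF2S1 at 0.25 (SE 0.09) and the termination GTPase gene GSPT2, at percentile 19.3 of signal, at 0.89 (SE 0.35). None passed over all probes.

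Promoter windows are shown for members with an unadjusted p under 0.05 and arrays of the 2 labels apart in the deposited and normalized values. The brightest probe also had to lie in the upper 50% of signal, and all probes of a gene had to share a sign. ABCF2 and ABCE1 met this rule above 0. The windows come from RefSeq, build GRCh38.p14, and run from 250 bases before to 50 bases after the annotated start, 5′ to 3′ on the gene's strand. Capitals mark matches, on either strand, to the GC box, whose letters are GGGCGG, or to the box named for its letters CCAAT.
ABCF2, chr7:151227156-151227455, minus strand: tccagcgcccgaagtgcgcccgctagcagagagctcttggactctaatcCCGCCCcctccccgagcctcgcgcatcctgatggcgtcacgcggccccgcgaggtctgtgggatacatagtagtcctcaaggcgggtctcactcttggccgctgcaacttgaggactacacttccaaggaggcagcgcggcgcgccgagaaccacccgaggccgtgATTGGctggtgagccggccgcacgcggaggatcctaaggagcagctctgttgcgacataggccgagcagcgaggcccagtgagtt
ABCE1, chr4:145098061-145098360, plus strand: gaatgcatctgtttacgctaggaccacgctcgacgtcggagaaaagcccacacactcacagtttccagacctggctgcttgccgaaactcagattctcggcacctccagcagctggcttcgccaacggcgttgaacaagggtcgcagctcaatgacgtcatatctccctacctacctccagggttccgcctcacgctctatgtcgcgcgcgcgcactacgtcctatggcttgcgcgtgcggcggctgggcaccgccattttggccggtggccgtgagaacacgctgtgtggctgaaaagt
The ABCF2 window held 1 GC box and 1 CCAAT box, on a base composition of 65.3% G or C. The ABCE1 window, at 59.7% G or C, held neither. Nor did either window hold the TATA box, letters TATAAA, the E-box, letters CACGTG, or the antioxidant element core, letters TGACNNNGC. No letters of a match overlapped another match. Over all 35116 windows 45.0% held a GC box, 34.6% a CCAAT box, 11.5% a TATA box, 7.26% an E-box and 13.3% an antioxidant core. Of the 33 members with a window, 17 (51.5%), 6 (18.2%), 4 (12.1%), 3 (9.09%) and 7 (21.2%) held them in that order. A match describes letters and shows no binding.

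Among the B members of mitochondria and endolysosomes, ABCB10 lay highest. ABCB10, an inner-membrane exporter needed for haem synthesis in red cell precursors, read 1126, 980 and 915 in arrays labelled CCN5 and 743, 855 and 891 in arrays labelled vector. The arrays labelled CCN5 were all above the others, by a narrow margin between CCN5 replicate 3 and vector replicate 3. The difference was 0.32 (SE 0.09, interval 0.10 to 0.53, limma adjusted p = 0.164). Its second probe read 685, 719 and 841 in arrays labelled CCN5 against 565, 623 and 591 in arrays labelled vector, a difference of 0.37 (SE 0.14). Both probes thus separated the labels in the same direction. The porphyrin transporter ABCB6 stood at 0.11 (SE 0.12), ABCB8 of the inner mitochondrial membrane at 0.11 (SE 0.11) and the lysosomal peptide transporter ABCB9 at 0.08 (SE 0.08). Other probes gave -0.01 for ABCB8, and -0.10 and -0.09 for ABCB9. ABCB5 was grouped here as a B member, and no site in mitochondria or endolysosomes is claimed for it. Its 4 probes ranged from -0.69 to 0.28, the brightest at -0.17, so that gene has no single value.

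The ABCB10 window, shown by the rule given for ABCF2 and ABCE1, had 77.3% G or C and 4 GC boxes, in capitals.
ABCB10, chr1:229558658-229558957, minus strand: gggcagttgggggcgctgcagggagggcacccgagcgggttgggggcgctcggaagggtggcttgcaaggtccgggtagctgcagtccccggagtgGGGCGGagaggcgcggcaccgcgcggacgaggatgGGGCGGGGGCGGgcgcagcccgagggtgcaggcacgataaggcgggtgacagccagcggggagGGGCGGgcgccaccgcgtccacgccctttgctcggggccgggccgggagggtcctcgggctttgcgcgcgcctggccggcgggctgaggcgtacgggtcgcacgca
It held none of the other 4 motifs.

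Haem and iron-sulphur genes of mitochondria, the partners of these B members, went both ways. Of 16 genes 14 were measured, 6 higher and 8 lower, with a median of -0.04. At an unadjusted p under 0.05, 1 of the 14 was higher and 2 were lower, against 8.58% and 11.2% of all genes. The iron-sulphur co-chaperone HSCB stood at 0.36 (SE 0.11), the iron importer mitoferrin-1, SLC25A37, at -0.30 (SE 0.09) and the cysteine desulphurase NFS1 at -0.25 (SE 0.08).

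The A subfamily, which moves lipids and retinoids, lay mostly below 0 on the normalized scale. Of its 11 measured genes 3 were higher and 8 lower, with a median of -0.12, and 8 of the 11 probes were in the lower 50% of signal. Without vector replicate 3 the split was 6 higher and 5 lower, with a median of 0.0077. On the deposited scale it was 4 higher and 7 lower (median -0.047), and under median centring 5 higher and 6 lower (median -0.0020). ABCA7, a phospholipid transporter linked to phagocytosis, read 293, 193 and 201 in arrays labelled CCN5 against 274, 307 and 318 in arrays labelled vector. As deposited, CCN5 replicate 1 lay above vector replicate 1, and the groups were apart only after normalization, with a difference of -0.38 (SE 0.10, limma adjusted p = 0.157). ABCA4, the retinal photoreceptor flippase, likewise overlapped as deposited, at 209, 192 and 147 in arrays labelled CCN5 and 198, 254 and 264 in those labelled vector. Its normalized difference was -0.38 (SE 0.12, adjusted p = 0.183). ABCA12, which loads lipids into the lamellar granules of keratinocytes, read 482, 492 and 513 in arrays labelled CCN5, against 610, 693 and 606 in arrays labelled vector. Its arrays were apart on both scales, and the difference was -0.32 (SE 0.12, interval -0.62 to -0.02, adjusted p = 0.245). The squamous keratins KRT14 and KRT16, given here since ABCA12 serves keratinocytes, stood at -0.62 (SE 0.11) and -0.51 (SE 0.11), and KRT5 at 0.40 (SE 0.17).

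The ABCA12 window is shown by the same rule and is the one printed here of a gene that was lower in arrays labelled CCN5. ABCC1 was also lower and met the rule, but had no window. The ABCA12 window had 48.7% G or C, and none of the 5 motifs was among its letters.
ABCA12, chr2:215138577-215138876, minus strand: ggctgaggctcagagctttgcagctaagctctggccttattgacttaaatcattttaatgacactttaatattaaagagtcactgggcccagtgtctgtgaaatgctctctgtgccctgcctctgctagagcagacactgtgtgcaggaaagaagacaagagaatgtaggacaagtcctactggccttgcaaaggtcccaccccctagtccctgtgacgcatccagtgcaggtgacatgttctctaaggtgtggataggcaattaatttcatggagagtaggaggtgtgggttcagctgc

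ABCA10 is a case where probes disagreed. Its brightest probe read 3030, 3025 and 3334 in arrays labelled CCN5 and 2418, 2384 and 2413 in arrays labelled vector. The groups were well apart, at 0.38 (SE 0.09, interval 0.17 to 0.60). The second probe, also in the upper 50% of signal, read 934, 933 and 843 in arrays labelled CCN5 against 967, 1004 and 1071 in arrays labelled vector. Here the arrays labelled CCN5 were all below the others, at -0.14 (SE 0.08, interval -0.34 to 0.07), and the intervals of the 2 probes did not overlap. The mean of both probes gave 0.12. In RefSeq order ABCA10 lies on chromosome 17 in a run of A members, next to ABCA6 and ABCA5, with ABCA9 and ABCA8 beyond ABCA6. These neighbours stood at 0.16 for ABCA6 (SE 0.13), -0.38 for ABCA5 (SE 0.41), -0.27 for ABCA9 (SE 0.23) and -0.12 for ABCA8 (SE 0.13). ABCA5 and ABCA9 turned above 0 on the deposited scale and under median centring, and ABCA5 also without vector replicate 3 (0.08), so the run had no common direction. ABCA9 was listed at -10.96 on vector replicate 1 and was set to the floor there. The remaining A members, the lysosomal lipid transporter ABCA2 (0.02), the surfactant lipid transporter ABCA3 (-0.05) and ABCA13 (-0.05), had intervals that included 0. Their sign turned without 1 array, ABCA2 without CCN5 replicate 1 (-0.04), ABCA3 without CCN5 replicate 2 or 3 or vector replicate 3 (up to 0.11) and ABCA13 without CCN5 replicate 1 or vector replicate 3 (up to 0.07).

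**Figure D2:**
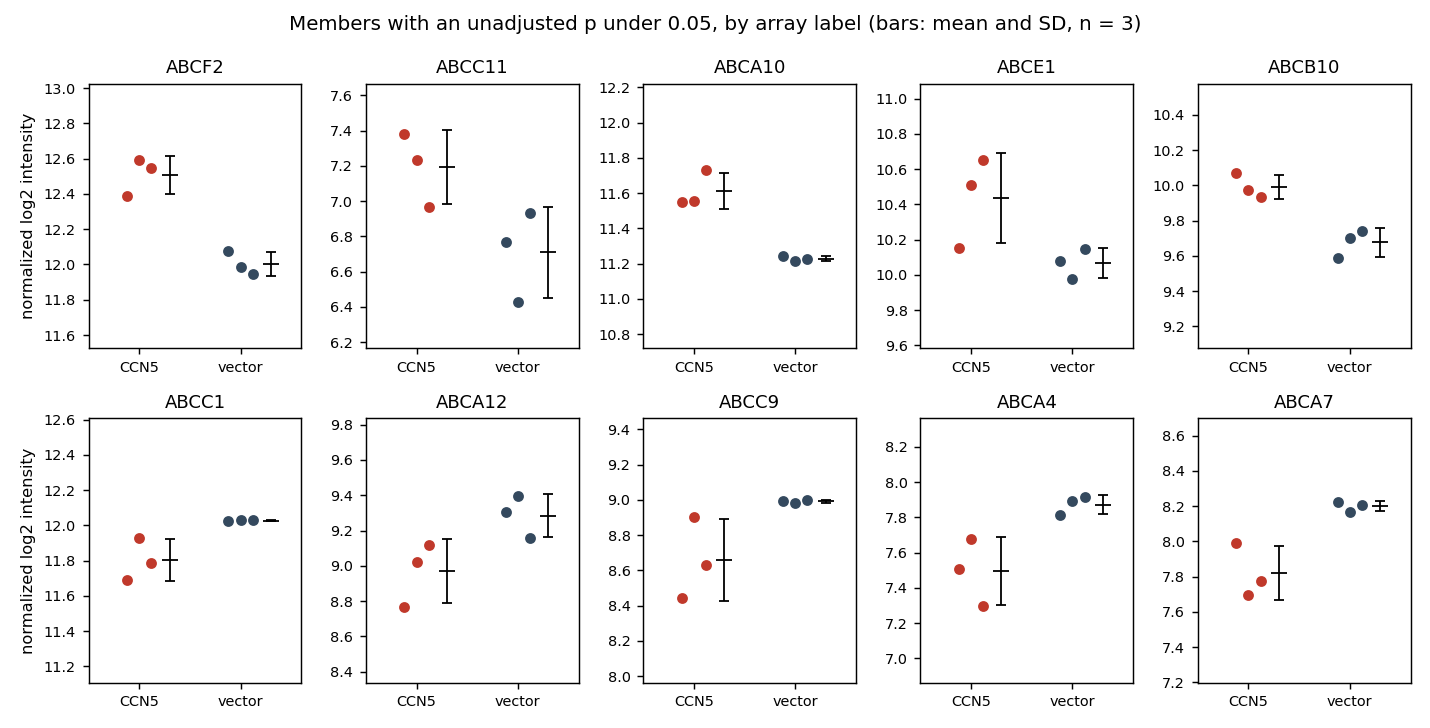
Normalized log2 intensity on each array for the 10 members with an unadjusted p under 0.05, arrays labelled CCN5 at left and arrays labelled vector at right, with the mean and SD of 3 arrays beside the points and the same axis span in each panel. The labels are apart in all 10, and the SD within the vector label is smallest for ABCC1, ABCC9 and ABCA10.

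The multidrug resistance-associated C members had 1 gene in each direction at an unadjusted p under 0.05 among 7 exporters. Of all genes 8.58% were higher and 11.2% lower at that threshold. ABCC1, which exports leukotriene C4 and glutathione conjugates, read 3335, 3926 and 3455 in arrays labelled CCN5, against 4200, 4149 and 4209 in arrays labelled vector. The arrays labelled CCN5 were all lower, with a difference of -0.23 (SE 0.09, limma adjusted p = 0.262). ABCC11, the apical exporter behind earwax type, was dim at percentile 25.3 and read 191, 138 and 116 in arrays labelled CCN5 and 81.7, 103 and 137 in arrays labelled vector. Those values overlapped as deposited and were apart after normalization, at 0.48 (SE 0.17, adjusted p = 0.209). Its chromosome 16 neighbour ABCC12 stood at -0.27 (SE 0.21).

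Other C exporters had intervals that included 0. ABCC3, which carries bile salts and glucuronides to blood, read 6300, 4983 and 6180 in arrays labelled CCN5 and 5521, 6791 and 6328 in arrays labelled vector. The labels were mixed, at -0.10 (SE 0.14), and the sign turned without CCN5 replicate 2 (0.02). The cyclic nucleotide and prostaglandin exporter ABCC4 stood at 0.17 (SE 0.13), the cyclic nucleotide exporter ABCC5 at 0.12 (SE 0.09) and ABCC10 at -0.10 (SE 0.09). ABCC5 had all arrays labelled CCN5 above the others, by a small margin of 3550 on CCN5 replicate 2 against 3513 on vector replicate 3. Second probes gave 0.04 for ABCC4, 0.02 for ABCC5 and -0.02 for ABCC3. The sulphonylurea receptors, which regulate potassium channels, went apart. ABCC9 (SUR2) read 390, 454 and 365 in arrays labelled CCN5 against 486, 524 and 544 in arrays labelled vector. Its difference was -0.33 (SE 0.13, adjusted p = 0.243), and a dimmer probe gave -0.06. ABCC8 (SUR1), at percentile 22.4, stood at 0.38 (SE 0.30). Their channel partners KCNJ11 and KCNJ8 stood at 0.30 (SE 0.21) and -0.05 (SE 0.09).

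Genes that make and attach glutathione, the cargo tag of ABCC1 and ABCC2, were lower for 8 and higher for 6 of 14 measured, with a median of -0.13. At an unadjusted p under 0.05, 0 of the 14 were higher and 4 lower, against 8.58% and 11.2% of all genes. The glutathione transferase GSTA4 stood at -0.79 (SE 0.11), the membrane enzyme MGST3 at -0.59 (SE 0.10) and GSTK1 at -0.45 (SE 0.12), with limma adjusted p-values of 0.0969, 0.106 and 0.151.

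Of the 7 apical pumps that line the bile canaliculus 1 was higher and 6 lower in arrays labelled CCN5, none at an unadjusted p under 0.05. The median was -0.08. On the deposited scale 4 were higher and 3 lower, with a median of 0.14, and under median centring 4 were higher and 3 lower, with a median of 0.19, so the group had no direction that held across scalings. Of its members ABCG2 and ABCC2 lay in the upper 50% of signal, and 4 of the 7 probes were in the lowest 25% of signal. ABCG2, a urate and drug exporter, read 1776, 1498 and 1505 in arrays labelled CCN5, against 1389, 1409 and 1525 in arrays labelled vector. The labels overlapped as deposited and were apart after normalization, and the difference was 0.16 (SE 0.09, interval -0.05 to 0.38), with 0.14 from a second probe. ABCC2, which excretes conjugated bilirubin, read 1000, 961 and 757 in arrays labelled CCN5 and 833, 1015 and 1053 in arrays labelled vector. Its difference was -0.07 (SE 0.12), within the spread between arrays, and turned without CCN5 replicate 3 (0.02).

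The bile salt export pump ABCB11 read 193, 239 and 177 in arrays labelled CCN5 and 206, 262 and 174 in arrays labelled vector. The labels were mixed, at -0.04 (SE 0.22), and the sign turned without CCN5 replicate 1, vector replicate 1 or vector replicate 2 (up to 0.08). ABCG5, which pairs with ABCG8 to export sterols, read 83.3, 100.1 and 103 in arrays labelled CCN5, against 72.7, 129.6 and 110.5 in arrays labelled vector. Its difference was -0.16 (SE 0.20), turning without CCN5 replicate 1 (0.06). ABCG8, its neighbour on chromosome 2, read 24.1, 24.6 and 32.8 in arrays labelled CCN5 against 1.99, 40.1 and 28.8 in arrays labelled vector. The lowest deposited value, on vector replicate 1, became the highest of the 6 after quantile normalization (4.49 on the log2 scale, against 4.03 to 4.16 on the other arrays). The sign of ABCG8 therefore rests on that array: -0.08 with all arrays, 0.09 without vector replicate 1.

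P-glycoprotein, ABCB1, read 31.8, 46.3 and 41.7 in arrays labelled CCN5 and 10.96, 68.1 and 46.4 in arrays labelled vector. The phosphatidylcholine floppase ABCB4, its neighbour on chromosome 7, read 64.7, 36.8 and 36.7 in arrays labelled CCN5 and 13.95, 60.6 and 39.9 in arrays labelled vector. Both probes were in the lowest 10% of signal, with vector replicate 1 lowest as deposited. The differences of -0.42 (SE 0.34) for ABCB1 and -0.21 (SE 0.38) for ABCB4 turned above 0 on the deposited scale, to 0.27 and 0.46. A still dimmer ABCB4 probe gave 0.90 (SE 0.35).

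**Figure D3:**
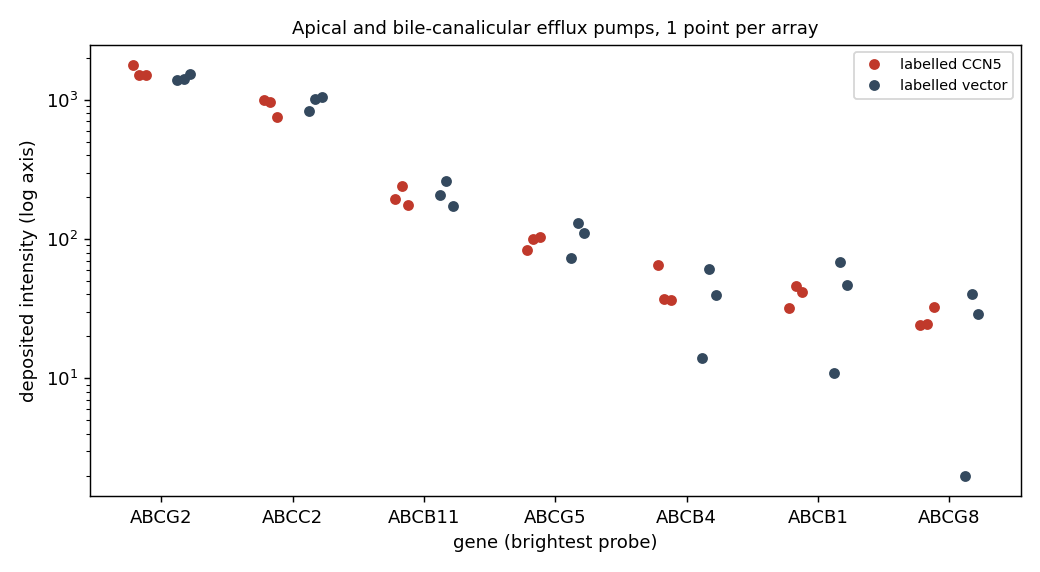
Deposited intensity (log axis) of the 7 apical and canalicular pumps on each array, arrays labelled CCN5 left and arrays labelled vector right of each gene name, ordered by probe signal. The labels overlap for all 7, and vector replicate 1 is the lowest point for ABCG2, ABCG5, ABCB4, ABCB1 and ABCG8 (1.99).

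Receptors that control transporter genes had 3 higher and 5 lower of 8 measured among 13 listed, with a median of -0.17. None of the higher ones and 3 of the lower ones had an unadjusted p under 0.05, against 8.58% and 11.2% of all genes. The liver X receptor NR1H3, an inducer of ABCG5 and ABCG8, stood at -0.31 (SE 0.08), the bile acid-induced repressor NR0B2 at -0.40 (SE 0.13) and the shared partner RXRA at -0.24 (SE 0.08). Of the liver uptake and exchange carriers 7 were higher and 4 lower of 11 measured. SLCO1B3 stood at -0.22 (SE 0.08), SLC22A7, an organic anion carrier, at 1.30 (SE 0.51) and the bile salt exporter subunit SLC51A at -0.18 (SE 0.09). The labels overlapped for SLC22A7 on both scales, and its arrays scattered widely. Its SD was 0.85 log2 units in arrays labelled CCN5 and 0.71 in those labelled vector. Canalicular flippase and scaffold partners split 5 and 5, with VPS33B, needed for apical delivery, at -0.33 (SE 0.10), the scaffold NHERF1 at 0.29 (SE 0.13) and RAB11A at -0.11 (SE 0.08). Bile acid synthesis genes were higher for 3 and lower for 6 of 9, and 6 of these probes lay in the lower 50% of signal. CYP7A1, the rate-limiting enzyme, was at percentile 7.53 with -0.77 (SE 0.26), and its labels were not apart on either scale. Its lowest deposited value, 27.9 on vector replicate 1, became the highest after quantile normalization (5.76, against 4.25 to 5.27 elsewhere). CYP7B1 stood at 0.36 (SE 0.16) and CYP8B1 at -0.19 (SE 0.09). No gene of these 4 lists passed over all probes.

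Of the peroxisomal D members, ABCD3, which imports bile acid precursors and branched fatty acids, read 5449, 6335 and 5570 in arrays labelled CCN5 against 5218, 5623 and 5089 in arrays labelled vector. The labels overlapped, at 0.11 (SE 0.10), and a second probe gave 0.24 (SE 0.15). ABCD2, an importer of very long-chain fatty acids, stood at 0.32 (SE 0.21) and the lysosomal cobalamin transporter ABCD4 at -0.16 (SE 0.18). Peroxisomal oxidation and import genes were higher for 4 and lower for 7 of 11 measured, with the bifunctional enzyme EHHADH at -0.34 (SE 0.11), ACSL1 at -0.35 (SE 0.13) and SLC27A2 at 0.30 (SE 0.13). The sterol transporter ABCG4 stood at 0.01 (SE 0.17) and turned without CCN5 replicate 1 or vector replicate 2 (down to -0.18).

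ABC genes that were left out by name or carry other symbols gave ABCG1 at -0.81 (SE 0.17, limma adjusted p = 0.122), the chloride channel CFTR at 0.80 (SE 0.25, limma adjusted p = 0.184), the peptide transporter subunits TAP1 at 0.02 (SE 0.10) and TAP2 at -0.14 (SE 0.09), and ABCA1 at -0.14 (SE 0.18). CFTR was dim, at percentile 15.9 of signal, and its labels overlapped on both scales. Its lowest deposited value, 18.9, was on vector replicate 1.

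Direction went with probe signal. Of the 19 members in the upper 50% of signal 14 were higher in arrays labelled CCN5 (73.7%, against 48.4% of all genes there), with a median of 0.08. Of the 21 in the lower 50%, 5 were higher (23.8%, against 47.6%), with a median of -0.16. On the deposited scale these became 12 of 19 (63.2%, against 47.3% of all genes there) and 10 of 21 (47.6%, against 59.8%). Under median centring they were 14 of 19 (73.7%, against 55.2%) and 10 of 21 (47.6%, against 66.0%). The count of dim members above 0 thus moved with the scaling, as did that of all dim genes, and stayed below the share of all genes in each of the 3. Without 1 array the counts were 12 to 15 and 6 to 8, with 14 and 7 when vector replicate 1 was left out. Standard errors ran from 0.08 to 0.17 (median 0.10) among members in the upper 50% and from 0.10 to 0.41 (median 0.18) in the lower 50%. Of 13 members with several probes, 5 had probes of both signs. The sign of 24 members was the same under every alternative tried. Those that changed only the variance model, the replicate block or the set of probes fitted kept each difference and could not turn a sign.

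**Figure D4:**
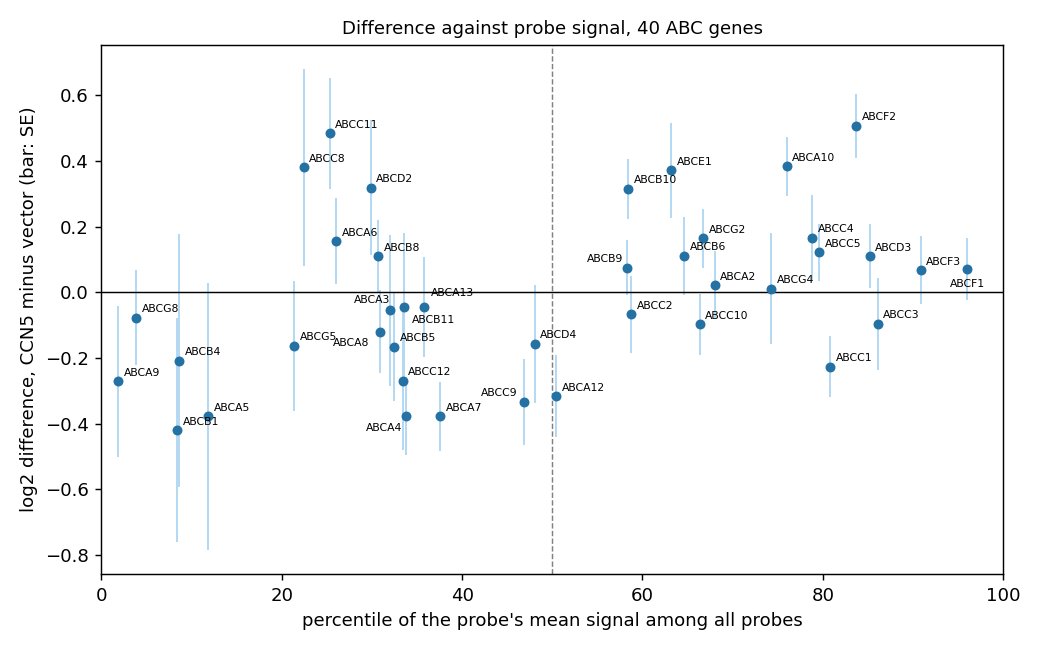
Log2 difference (arrays labelled CCN5 minus arrays labelled vector, bar: SE) against the percentile of the probe's mean signal among all probes, 1 point for each of the 40 genes, with a dashed line at the 50th percentile. Right of the line 14 of 19 points lie above 0, left of it 5 of 21.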

How the data were processed

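Per the labels' protocols, cDNA primed with T7 oligo(dT) was transcribed into antisense RNA, to which a cyanine dye was coupled. The deposited values are linear intensities, 1 per probe and array, whose scanner, background correction and scaling by the authors the sources used here do not give; values below 0 occur on 3 of the 6 arrays. Detection flags were not used, so probes are described by their percentile of signal.

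Intensities under 1 were set to 1 (5.35% of probes on vector replicate 1, at most 0.0814% elsewhere), then log2 values were quantile normalized. limma 3.58.1 in R 4.3.3 (lmFit, eBayes, two-sided) was fitted to all 28264 probes, CCN5 minus vector, with Benjamini-Hochberg adjustment over all of them. A table of GEO's platform annotation gave 25893 probes 1 gene symbol and left 2371 unnamed here. A gene is represented by its brightest probe. Values on each array are given for members with an unadjusted p under 0.05 and for apical pumps, with others chosen after their values were seen (ABCC3, ABCD3 and second probes). In each partner list the 3 genes of smallest p are named, with 5 ABC genes that are not members. Members and lists were chosen with earlier results of these data known, so lists are described by counts and medians without a test. Same-number arrays deviated together at -0.14, 0.12 and 0.02 (Pearson's r over the upper 50% of probes), so numbers were not taken as pairs. Alternatives covered scaling, offset, dim-probe filters, variance model, array weights, the replicate block, probe summaries and leaving out each array. Figures were drawn with matplotlib 3.10.9.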

Additional observations from a re-analysis of the deposited data

How the results depend on the processing

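Causes of the shifts that follow were not tested. With all arrays, 0 members were called under most settings. Members called higher numbered 1 with log2(value + 50), 1 with a trended, robust variance and 2 without the lowest 50% of probes, a fit that holds 19 of the 40 members. Those fits called 0.314%, 0.723% and 3.00% of all genes higher. Members called lower numbered 0 under every alternative. At an unadjusted p under 0.05, higher members numbered 3 on the deposited scale, and lower members 2 there, 2 under median centring and 2 without the lowest 50% of probes. Of all genes 6.66% were higher on the deposited scale, and 8.29%, 5.61% and 15.9% were lower in those 3 fits. Leaving out 1 array gave 3 to 5 higher and 1 to 5 lower. The replicate block gave 2 lower (5.0%, against 8.90% of all genes) and 0 called. The family's median was 0.086 on the deposited scale, 0.13 under median centring and 0.076 without the lowest 50% of probes, and ran from -0.0070 to 0.061 without 1 array, while the median of all probes moved from -0.0047 to 0.03 and 0.08 with the first 2. The CCN5 probe passed without the lowest 50% of probes (-0.34).

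Signs that turned were those of ABCA2 (-0.000335), ABCA5 (0.10), ABCA9 (1.14), ABCB1 (0.27), ABCB4 (0.46), ABCG4 (-0.0066) and ABCG8 (1.02) on the deposited scale, of ABCA5 (0.15), ABCA9 (1.18), ABCB1 (0.32), ABCB4 (0.50) and ABCG8 (1.07) under median centring, of ABCA2 (-0.017) and ABCG4 (-0.045) with array weights, and of ABCB4 (0.35) and ABCB9 (-0.039) with the mean of a gene's probes. Without 1 array the differences ran from -0.17 to 0.072 for ABCA13, -0.041 to 0.11 for ABCA2, -0.27 to 0.11 for ABCA3, -0.62 to 0.079 for ABCA5, -0.24 to 0.082 for ABCB11, -0.61 to 0.23 for ABCB4 (above 0 without CCN5 replicate 3), -0.27 to 0.020 for ABCB5 (likewise), -0.14 to 0.015 for ABCC2, -0.18 to 0.021 for ABCC3, -0.011 to 0.12 for ABCF3, -0.18 to 0.13 for ABCG4, -0.28 to 0.061 for ABCG5 and -0.16 to 0.089 for ABCG8. With 3 arrays per label and no detection flags, the dim pumps ABCB1, ABCB4 and ABCG8 have no firm direction.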
